A study of Mus musculus with 6 samples.

Results

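The cytosolic ribosomal proteins are the protein parts of the ribosomes that translate nuclear genes. Their genes were taken by name, as every probe set whose platform annotation gives a single symbol made of Rpl or Rps and a number, or Rplp0, Rplp1 or Rplp2, without the S6 kinases and without pseudogenes marked -ps. The rule found 214 probe sets of 62 genes, among 28944 probe sets and 19938 genes with a single symbol. The expression values come from left ventricles of male C57/BL6 mice aged 10 weeks, on Affymetrix arrays. The treated samples (3 arrays) are from mice injected subcutaneously with 2-methyl-2-thiazoline (2MT), a small thiazoline compound, at 50 mg/kg, with excision of the heart after 4 h, and the controls (3 arrays) carry a saline label. The protocol text, which all 6 samples carry, describes that injection alone, and the treatment label sets the groups. The series asks how 2MT protects the heart. The labels do not say that each array is a separate animal, so the spread behind each p-value is that among arrays and could be technical only.

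Ribosomal proteins bind the ribosomal RNAs of a large and a small subunit. The large subunit forms peptide bonds and carries the stalk, a base protein (Rplp0) with acidic proteins (Rplp1 and Rplp2) that recruit translation factors, while the small subunit decodes the messenger RNA. Their messenger RNAs are abundant in every tissue and mostly begin with a terminal oligopyrimidine (TOP) tract, a C followed by pyrimidines at the cap, through which mTORC1 and LARP1 control their translation. Heart and skeletal muscle also express Rpl3l, a muscle form of Rpl3.

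Of the 62 genes, 53 encode proteins in a list of 80 core components. In that list 16 lay only on probe sets shared with other symbols, among them Rpl3, Rpl11, Rpl13a and Rps27, and 9 are not analysed here. Rpsa and Fau have names that the rule does not match, and they differed between 2MT and saline by -0.15 and 0.00 on the log2 scale (adjusted p = 0.26 and 0.99 in limma). Of the 239 probe sets that share a ribosomal symbol with others, 237 were tested and 0 were called (2.90% of all probe sets were), with a median difference of 0.03. That median mixes genes. Those naming Rpl21, Rpl29 or Rpl17 had the higher mean in 2MT, and those naming Rpl37a, Rpl41, Rpl12 or Rps2 the lower. The 3 probe sets that name Rps2 alone differed by -0.01 to 0.11, 2 of them above 0 and 1 below. Ribosomal protein genes have many near-identical processed copies in the genome, whose transcripts a probe set may also bind. The other 9 of the 62 are Rpl3l, Rpl7l1, Rpl10l, Rpl32l, Rpl39l, Rps4l and Rps27l, which resemble core genes, Rps19bp1, whose product binds Rps19 and is no ribosomal protein, and Rps23rg1. The gene table lists Rps4l as a transcribed pseudogene.

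To show the start that many of these messenger RNAs share, windows of 50 bases were read from RefSeq promoters (GRCm38.p6), with 30 bases before the annotated start and 20 from it. The promoter table held 50 of the 62 genes. Rpl10a, at the second of its 2 annotated starts, and Rps28 are shown because their signal changed, and Rplp2, Rps6, Rpl28, Rps10 and Rps18 because they carry the tract. Capitals mark an unbroken run of C and T that begins with C at the annotated start, where it has at least 5 bases.
Rpl10a, GRCm38.p6 chr17:28328535-28328584, plus strand: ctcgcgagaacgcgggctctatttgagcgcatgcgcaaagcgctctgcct
Rps28, GRCm38.p6 chr17:33824543-33824592, minus strand: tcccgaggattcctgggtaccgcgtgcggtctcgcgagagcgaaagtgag
Rplp2, GRCm38.p6 chr7:141447621-141447670, plus strand: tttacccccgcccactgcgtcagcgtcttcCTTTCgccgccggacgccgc
Rps6, GRCm38.p6 chr4:86857348-86857397, minus strand: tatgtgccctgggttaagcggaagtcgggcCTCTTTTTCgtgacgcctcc
Rpl28, GRCm38.p6 chr7:4792935-4792984, plus strand: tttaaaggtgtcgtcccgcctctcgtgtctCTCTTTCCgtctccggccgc
Rps10, GRCm38.p6 chr17:27635225-27635274, minus strand: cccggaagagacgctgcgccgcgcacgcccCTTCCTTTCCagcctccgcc
Rps18, GRCm38.p6 chr17:33955646-33955695, minus strand: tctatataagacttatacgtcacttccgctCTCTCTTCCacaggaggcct

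Such a tract stood at 10 of 59 annotated starts of these genes (16.9%), against 823 of 32851 starts of all genes (2.51%). The starts of Rpl10a and Rps28 had none, and a start annotated a few bases away from the true one would hide a tract. Genes whose mean signal reached a dim floor, the median of all probe sets (4.345), were tested with limma, and a gene was called at an adjusted p under 0.05. Those with the tract had a median log2 difference of -0.04 between 2MT and saline (10 genes, 0 called, where 4.63% of all genes tested were), and those without it one of -0.05 (36 genes, 2 called). The ETS core CCGGAAG, searched on both strands from 250 bases before to 50 after the start, was in 19 of the 59 (32.2%) and in 8.86% of all windows. AAGATGGC, a YY1 core, was in 3 (5.08%, against 2.75%), and the E-box CACGTG in 7 (11.9%, against 7.15%). These matches describe letters and not binding.

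One array, 2MT 2, stood apart in this family. Each gene's value was set against its own mean over the 6 arrays, and the median deviation over the 58 genes was -0.09 on 2MT 2, against -0.0017 on 2MT 1, 0.03 on 2MT 3, and 0.05, 0.01 and 0.02 on saline 1, 2 and 3. 2MT 2 alone had the lowest value in 37 of the 58 genes (63.8%), while over all genes tested it was lowest in 15.4%. It was lowest in 16 of 20 small-subunit and 17 of 29 large-subunit genes, and in 24 of 77 mitochondrial ribosomal protein genes. Without 2MT 2 the family's median difference between 2MT and saline was -0.03 (-0.05 with it), 37 of 58 genes had the lower mean in 2MT, and 0 were called in limma (2.62% of all genes were), with 7 of 58 at an unadjusted p under 0.05 (14.1% of all genes). Whether RNA quality or handling of that sample plays a part was not tested.

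**Figure D1:**
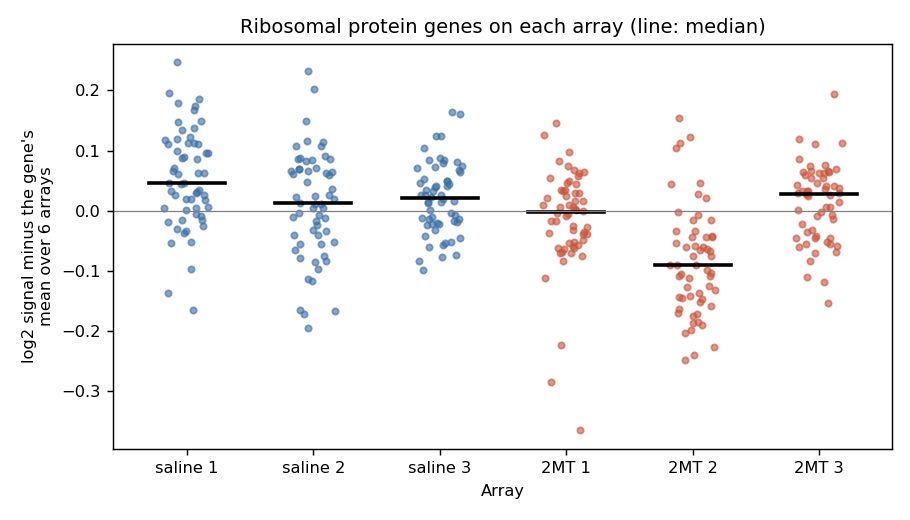
Log2 signal minus the gene's mean over the 6 arrays (y axis) for the 58 tested genes (dots) on each array (x axis), with the median as a line. The median of 2MT 2 is -0.09, and the other 5 medians lie between -0.0017 and 0.05.

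At 4 h the differences between 2MT and saline in this gene family were small. Of 58 genes with a mean signal above the dim floor, Rpl10a and Rpl21 of the large subunit rose by 15.9% and 15.4%, the stalk gene Rplp1 fell by 12.9%, and the small-subunit gene Rps28 fell by 15.1%. These 4 are 6.9% of the 58, and 4.63% of all genes tested were called by the same rule. By direction, 2 of 58 rose (2.22% of all genes did) and 2 fell (2.41% of all genes did). Differences ran from -0.24 to 0.21 on the log2 scale with a median of -0.05, against 0.00 over all 10547 genes tested. In 42 of the 58 the 2MT mean was the lower one (72.4%, against 48.1% of all genes). Among 45 of the genes with a mean signal of 8 or more the median was -0.05, against 0.02 over all 1232 genes at that signal. Of those 45 genes 8.89% were called, against 9.58% of the 1232.

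**Figure D2:**
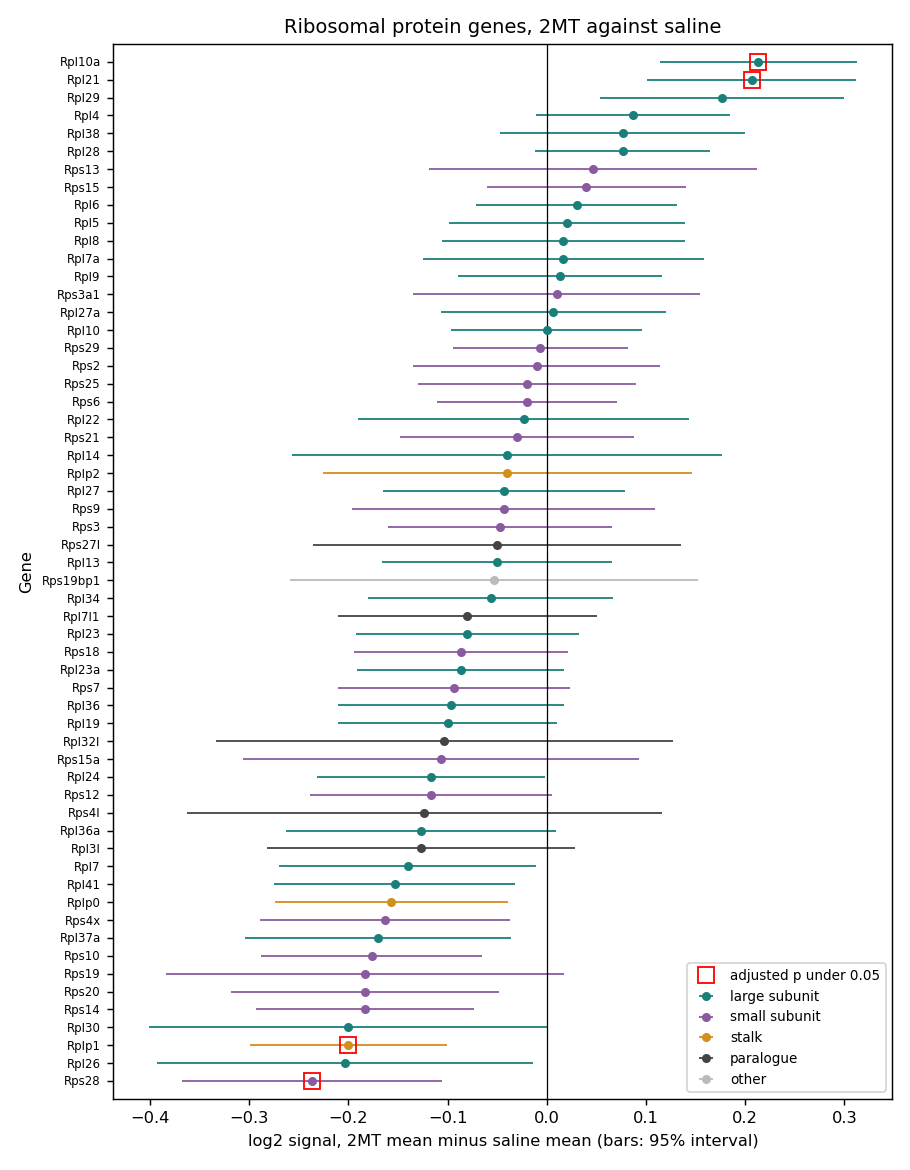
The log2 difference (2MT mean minus saline mean, x axis) of each of the 58 tested genes, in order, with 95% intervals from limma; colours give the subunit, stalk or paralogue class and red squares the 4 genes called. Most points lie between -0.2 and 0.1, with Rpl10a and Rpl21 at the top and Rps28 at the bottom.

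Rpl10a, a protein of the flexible L1 stalk beside the exit site, had log2 signals of 10.03, 9.96 and 10.07 in saline and 10.21, 10.25 and 10.24 in 2MT. All 2MT values lay above all saline values. The difference was 0.21 ± 0.05 (SE, adjusted p = 0.016 in limma), from means of 10.02 ± 0.06 and 10.23 ± 0.02 (SD, n = 3). Its 4 probe sets differed by 0.19 to 0.23, and 3 of them had no overlap between groups.

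Rpl21 had signals of 11.43, 11.47 and 11.49 in saline and 11.57, 11.68 and 11.76 in 2MT. Again the groups did not overlap, and the 2MT arrays were the more spread. The difference was 0.21 ± 0.05 (SE, adjusted p = 0.026 in limma). All 9 of its probe sets were higher in 2MT, by 0.16 to 0.22, with no overlap of the groups.

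Rplp1 of the stalk was at 11.00, 10.92 and 10.93 in saline and at 10.78, 10.68 and 10.79 in 2MT. Every 2MT array was under every saline array, 2MT 2 being the lowest. The difference was -0.20 ± 0.05 (SE, adjusted p = 0.023 in limma), and its second probe set differed by -0.13 without overlap. Rps28, a small protein at the messenger RNA exit of the small subunit, was at 8.67, 8.76 and 8.60 in saline and at 8.52, 8.36 and 8.44 in 2MT. The groups were apart by less than the spread within each. The difference was -0.24 ± 0.06 (SE, adjusted p = 0.042 in limma), and all 7 probe sets were lower without overlap, with differences from -0.25 to -0.21.

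Leaving out 1 array changed the calls in this family and over all genes. Without saline 3, 5 of the family were called (6.14% of all genes were), and without 2MT 1 the same 4 (3.3%). In limma without saline 1 only Rpl10a was called (2.83% of all genes were) and without saline 2 only Rplp1 (3.36%). The count was 0 without 2MT 2 (2.62%) and without 2MT 3 (2.48%), with 7 and 22 of 58 at an unadjusted p under 0.05 (14.1% and 13.9% of all genes). Without the variance trend 0 passed (2.77% of all genes did), with 10 at an unadjusted p under 0.05 (16.7% of all genes). Probe sets of 1 gene were read from the same arrays and may bind near-identical sequences, so their agreement is no replication.

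**Figure D3:**
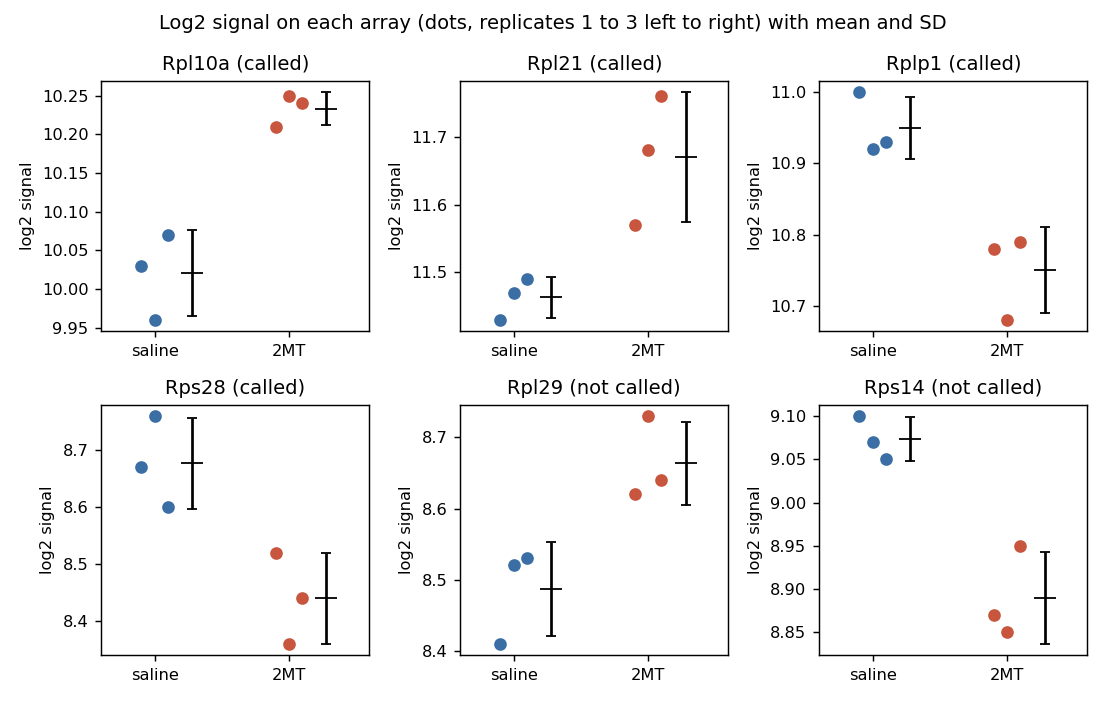
Log2 signal (y axis) of Rpl10a, Rpl21, Rplp1, Rps28, Rpl29 and Rps14 on each array, saline and 2MT, with the group mean and SD beside the dots; each panel has its own axis range, which does not start at 0. The groups do not overlap in any of the 6 genes, of which the first 4 were called.

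Of the other stalk genes, the base protein Rplp0 was at 10.71, 10.82 and 10.89 in saline and at 10.72, 10.57 and 10.66 in 2MT. Only 2MT 1 reached the saline range, just above saline 1. The difference of -0.16 ± 0.05 (SE) did not pass (adjusted p = 0.14 in limma). Rplp2, the partner of Rplp1, was at 6.05, 6.17 and 6.15 in saline and at 6.23, 6.07 and 5.95 in 2MT, with a 95% interval of the difference from -0.23 to 0.15. Its groups overlapped. The difference between Rplp1 and Rplp2 was not tested.

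In the small subunit the 2MT mean was the lower in 17 of 20 tested genes (85%, against 48.1% of all genes), with a median difference of -0.07. The lowest value was that of 2MT 2 alone in 16 of the 20. Only Rps28 was called (5%, against 4.63% of all genes). Rps14, on the platform of the small subunit, had a larger difference in its second probe set. The probe set used for the gene was at 9.10, 9.07 and 9.05 in saline and at 8.87, 8.85 and 8.95 in 2MT, a difference of -0.18 ± 0.05 (SE, adjusted p = 0.057 in limma). The other was at 8.84, 8.76 and 8.66 in saline and at 8.38, 8.29 and 8.37 in 2MT. In both the groups were apart, by a wider margin in the second. When limma was run on every probe set, the second fell by 0.41 ± 0.06 (SE, adjusted p = 0.0058), and it passed with any 1 array left out, at adjusted p values from 0.0062 to 0.035. With the mean of both probe sets Rps14 was called (-0.30, adjusted p = 0.0056 in limma).

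Rps10 and Rps20, both on the head of the small subunit, differed by -0.18 ± 0.05 and -0.18 ± 0.06 (SE) without overlap of the groups and without passing (adjusted p = 0.072 and 0.13 in limma). Rps6 is the substrate of the S6 kinases. The signals of the probe set used were 10.44, 10.42 and 10.39 in saline and 10.39, 10.40 and 10.40 in 2MT, and the 95% interval of the difference ran from -0.11 to 0.07. All 8 of its probe sets had the lower mean in 2MT, with differences from -0.09 to -0.02, and in 1 of them the groups did not overlap. Rps19, which matures the small subunit and is mutated in Diamond-Blackfan anaemia, ranged from 7.07 to 7.35 in saline and from 6.87 to 7.18 in 2MT. These ranges overlapped, with an interval from -0.38 to 0.02.

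In the large subunit 16 of 29 tested genes were lower in 2MT on average (55.2%, against 48.1% of all genes). Of the others 12 were higher and Rpl10 was equal, and the median difference was -0.04. Next to the called genes, Rpl29 was at 8.41, 8.52 and 8.53 in saline and at 8.62, 8.73 and 8.64 in 2MT. Its groups did not overlap, and its difference of 0.18 ± 0.06 (SE) did not pass (adjusted p = 0.11 in limma). Rpl4 and Rpl28 were also higher on every 2MT array, by 0.09 ± 0.05 and 0.08 ± 0.04 (SE). Rpl37a, Rpl41, Rpl24 and Rpl36 were lower on every 2MT array, with differences of -0.17, -0.15, -0.12 and -0.10, and did not pass either. Rpl5, which with Rpl11 can bind the p53 inhibitor Mdm2, was at 9.98, 9.91 and 9.93 in saline and at 9.95, 9.86 and 10.07 in 2MT. The interval of its difference ran from -0.10 to 0.14. Rpl22, an RNA-binding protein of the large subunit, was at 6.43 ± 0.10 in saline and 6.40 ± 0.06 in 2MT (SD, n = 3).

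Over all classes, the groups did not overlap in 15 of 58 genes (25.9%, against 21.1% of all genes tested). In 10 of these 2MT was lower (17.2%, against 10.1%) and in 5 higher (8.62%, against 11.1%). The 5 were all large-subunit genes: Rpl10a, Rpl21, Rpl29, Rpl4 and Rpl28. At a mean signal of 8 or more the groups did not overlap in 31.1% of the family, against 30.6% of all genes. There 2MT was lower in 20% (against 13.6%) and higher in 11.1% (against 17%).

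Of the paralogues, Rpl3l was at 8.77, 8.79 and 8.65 in saline and at 8.45, 8.63 and 8.75 in 2MT. The groups overlapped and the interval of the difference was -0.28 to 0.03 (adjusted p = 0.39 in limma). Rpl7l1, an assembly factor related to Rpl7, was lower on every 2MT array, with a difference of -0.08 ± 0.06 (SE) that did not pass. Rps27l, induced by p53 in other settings, was at 7.44 ± 0.20 in saline and 7.39 ± 0.06 in 2MT (SD, n = 3). Rps4l was at 6.06, 6.13 and 6.19 in saline and 5.70, 6.17 and 6.14 in 2MT, where 2MT 1 alone was low. Rpl10l and Rpl39l, which replace Rpl10 and Rpl39 in male germ cells, were under the dim floor of 4.345, at means over the 6 arrays of 3.63 and 2.34. So were Rps23rg1 at 4.06 and the probe set that names Rpl12 alone at 4.19, while those naming Rpl12 with Gm32899 had means from 9.4 to 10.2. Just above the floor was Rpl32l, at 4.61.

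Most genes had several probe sets, and these mostly ran alike. Of 38 genes with more than 1 above the floor, 30 had all differences of 1 sign, and the median span of a gene's differences was 0.06. The widest span was that of Rps21, whose main probe set differed by -0.03. Its second, with values of 6.44, 6.46 and 6.35 in saline and 6.58, 6.64 and 6.77 in 2MT, differed by 0.25 without overlap (adjusted p = 0.12 in limma over all probe sets). Next came Rps14, with a span of 0.22. When each of 210 probe sets was tested on its own, 2 were called, 1 of Rpl10a and 1 of Rps14 (0.952%, against 2.90% of all 14480 probe sets). Of the 214 probe sets, 19 had the same 6 values as another of the same gene.

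**Figure D4:**
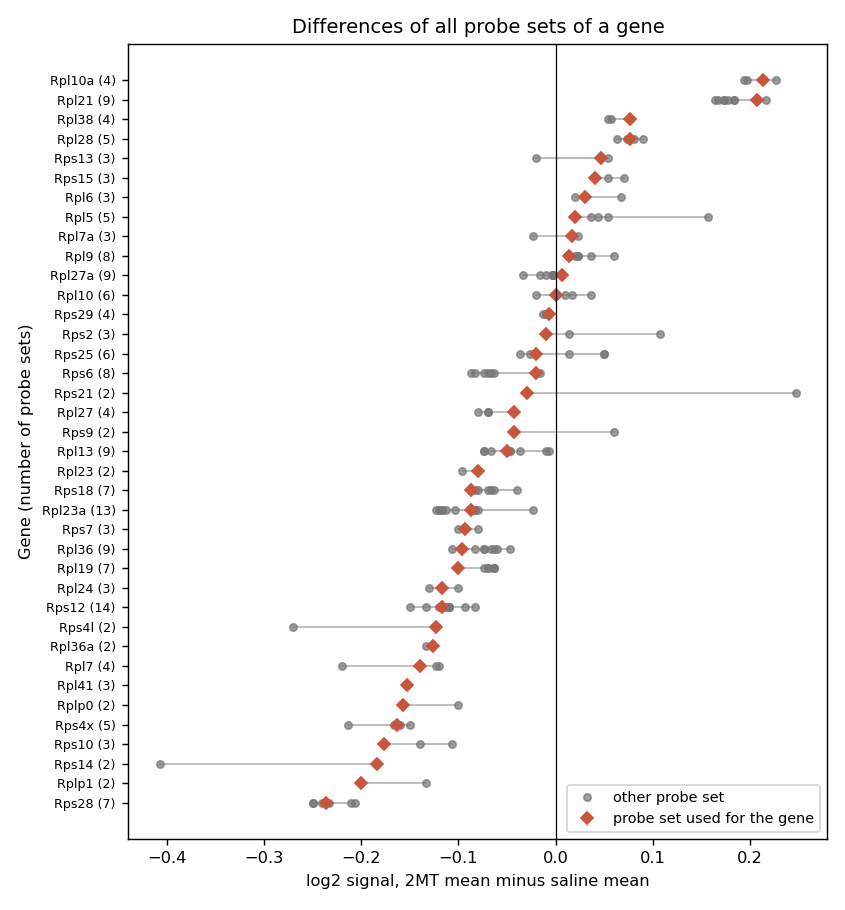
The log2 difference (2MT mean minus saline mean, x axis) of every probe set above the floor, for the 38 genes with more than 1; the diamond is the probe set used for the gene. Rps21 and Rps14 have the widest spans, 0.28 and 0.22, and the probe sets of Rpl10a, Rpl21 and Rps28 lie close together.

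Among regulators and partners, the messenger RNA of Myc, a transcription factor that promotes ribosome production, fell from 5.60 ± 0.25 to 4.16 ± 0.15 (SD, n = 3, adjusted p = 1.5e-05 in limma). The 2MT mean lies under the dim floor, it was not tested under the stricter dim filter, and the call held in the other alternatives. Of 11 tested genes in its list of MYC partners and the p53 branch, 1 fell and 0 rose (2.41% and 2.22% of all genes did). Of 27 tested genes of mTORC1, LARP1 and the S6 kinases, 2 rose and 0 fell, so 7.41% were called, against 4.63% of all genes. They were Rragd, a Rag GTPase that brings mTORC1 to lysosomes, which rose by 0.32 ± 0.08, and Rps6ka3, the kinase RSK2, which rose by 0.27 ± 0.07 (SE, adjusted p = 0.026 and 0.035 in limma). Rragd was not called without saline 1, saline 2, 2MT 1 or 2MT 3, and Rps6ka3 not without any single array other than saline 3. Both calls were also lost without the variance trend (adjusted p = 0.096 and 0.080 in limma) and with every probe set tested on its own (0.062 and 0.056), and that of Rps6ka3 with no dim filter (0.062). Mtor and Larp1 differed by -0.10 and -0.04.

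Of 31 tested genes of RNA polymerase I and pre-rRNA processing and 38 of subunit assembly, 0 were called in limma (4.63% of all genes were). In each list 6 genes had an unadjusted p under 0.05 (19.4% and 15.8%, against 17.8% of all genes). Their medians were -0.01 and -0.03. Elongation factors and other TOP genes had 0 calls in 18 (4.63% of all genes were called), with 4 at an unadjusted p under 0.05 (22.2%). Their median was -0.06, and 14 were lower in 2MT on average (77.8%, against 48.1% of all genes). Eef1a1 and Eef2 differed by -0.08 and -0.06. Of 77 mitochondrial ribosomal protein genes 0 were called (against 4.63% of all genes), with 12 at an unadjusted p under 0.05 (15.6%) and a median of -0.03. Whether these lists differ from the cytosolic ribosomal proteins was not tested.

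All 8 cardiomyocyte genes were above the floor, at a mean log2 signal of 12.4 on each array. Of 4 atrial genes 2 were dim, while Nppa (10.24 ± 0.34 in saline and 10.33 ± 0.16 in 2MT, SD, n = 3) and Myl4 were not. Myl4 was at 5.02, 6.47 and 5.09 in saline and at 4.80, 5.13 and 4.99 in 2MT, so that saline 2 stood apart. In bulk tissue fewer cells of a type and less RNA per cell cannot be told apart. Of 9 macrophage genes 2 fell in limma (2.41% of all genes did), 4 had the higher mean in 2MT, and the median difference was -0.03. The 2 were Fcgr3 and Lyve1, with differences of -0.53 ± 0.09 and -0.34 ± 0.09 (SE, adjusted p = 0.0044 and 0.035 in limma). Of 7 endothelial genes 1 fell (2.41% of all genes did), Pecam1 (-0.33 ± 0.07, SE, adjusted p = 0.020 in limma). Among the 7, 3 had the higher mean in 2MT. On every 2MT array Kdr was higher (0.24 ± 0.09) and Fabp4 lower (-0.14 ± 0.05, SE), both without passing. The summed linear signal of the macrophage list was 879 to 1024 in saline and 810 to 900 in 2MT. That of 7 lymphocyte genes, 6 of them dim, was 75 to 80 and 76 to 79. That of the 3 erythrocyte genes with a probe set was 130 to 260 and 129 to 154, and saline 3 was the highest. Their part in the results was not tested. Without saline 3 the family had 5 called genes, among them the 4 called with all arrays. Over all genes 6.14% were called without saline 3, against 4.63% with all arrays.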

How the data were processed

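The members and gene lists were chosen with earlier results of these data known. The submitters' processing notes name MAS5 alone. The authors deposited a table of signals, read here as log2 because of their range (0.51 to 13.5). The array medians lie between 4.32 and 4.37. Their normalization is not given in the sources used here, and no further scaling was done. Signal over background is unknown without detection calls, and precision is limited by the number of arrays. Signals of different probe sets were set against each other only to choose a gene's probe set, to apply the dim floor and to split genes at a mean signal of 8.

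A gene with several probe sets took the one of highest mean signal. A dim floor at the median over all probe sets (4.345) kept 10547 genes, 58 of them ribosomal. These were fitted with limma 3.58.1 in R 4.3.3 (lmFit and eBayes with a variance trend, two-sided, group as the only term) and adjusted by Benjamini-Hochberg over all of them. The procedure was tested on simulated data with fold changes larger than any among the 58 genes. Recovery of changes as small as theirs was not tested. An exact permutation test of 3 against 3 cannot go below 0.1.

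Named genes were those called, the stalk genes and paralogues, up to 10 per direction with the largest differences and no overlap, and Rpl5, Rpl22, Rps6 and Rps19. Of the other lists every called gene was named, and others chosen after their values were seen. Symbols came from the platform annotation, and Entrez IDs found all 62 in RefSeq. Python 3.11.15 with matplotlib 3.10.9 drew the plots. Alternatives changed normalization, dim filter, offset, probe sets, variance model, replicate block, threshold or 1 array at a time.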

Additional observations from a re-analysis of the deposited data

Results flagged for a closer look

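The second probe set of Rps14, which the comparison by gene leaves out because its mean is lower, differed by -0.41 on the log2 scale between 2MT and saline (8.35 ± 0.05 against 8.75 ± 0.09, SD, n = 3). It was one of 2 ribosomal probe sets called when limma was run on every probe set.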

How the results depend on the processing

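The count of called genes was 4 (4.63% of all genes were called). It was 2 with median centring (4.36% of all genes), 0 without the variance trend (2.77%) and 0 at an adjusted p under 0.01 (2.08%). With every probe set tested on its own it was 2 (2.9% of all probe sets). Leaving out 1 array gave 0 to 5 (2.48% to 6.14% of all genes). It was 3 to 6 under quantile normalization, cyclic loess, no or a stricter dim filter, the offset, the mean of probe sets, array weights and an adjusted p under 0.1. Over all genes these settings called 2.05% to 7.69%. With replicate number as a block the count was also 4, the same genes (5.56% of all genes). Same-numbered arrays deviated together at correlations of 0.07, 0.04 and 0.02, so the numbers are not taken to pair them. The family's median stayed negative in every alternative run, from -0.06 to -0.05 over those that keep all arrays and from -0.08 to -0.03 with 1 array left out. Among 24 named genes, the sign of Rps27l turned without saline 1 (0.03), of Rpl22 without saline 3 (0.033) and 2MT 2 (0.0033), of Rps4l without 2MT 1 (0.028), and of Rplp2 (0.027) and Rpl5 (-0.035) without 2MT 3. With 1 array left out these 5 ranged from -0.16 to 0.03, -0.067 to 0.033, -0.21 to 0.028, -0.11 to 0.027 and -0.035 to 0.07. None of these 5 genes was called in any alternative. Over the named genes and alternatives, 27 calls were lost, 5 gained (Rps14 in 4 alternatives and Rps10 in 1), and 370 values kept direction and call. Rpl21 lost its call in 9 of 17 alternatives, Rps28 in 8, Rplp1 in 6 and Rpl10a in 4. The causes were not tested.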
